A study of Mus musculus with 9 samples.

Results

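The primary granule genes of promyelocytes described here are *Mpo*, *Elane*, *Prtn3*, *Ctsg*, *Prss57*, *Ms4a3* and *Cst7*. They were taken by gene symbol, as 7 of the 55401 genes in each of the 3 deposited tables, and all 7 passed the filter on low values in every comparison. Their levels were measured by RNA-Seq in 9 libraries of a murine acute myeloid leukemia model, 3 per group. In this model, clones of C57BL/6-Ly5.1 bone marrow cells carry a retroviral vector for *Meis1* and *Hoxa9* (H9M) and a lentiviral color code (FGB-D). A mix of 24 such clones was transplanted with helper bone marrow into lethally irradiated C57Bl6/J mice, and cKit+ CD11b dim splenocytes were sorted by color code.

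In the pre-malignant group 1 library each came from clone 43BC-D, clone 33BC-D and clone 38BC-D, and mouse #15, taken 4 weeks after transplantation, was the source of all. The de novo expanded libraries came from the same clones in endpoint mice, 38BC-D from mouse #13, 43BC-D from mouse #14 and 33BC-D from mouse #17. The stably expanded libraries were all clone 34BC-D, from mice #13, #14 and #17, so that this group is 1 clone in 3 hosts. The age and sex of the hosts are not given in the sources used here. The labels tie each column of values to a group but not to 1 mouse or clone, so that the numbers 1 to 3 used for libraries within each group name neither. Differences from the pre-malignant group also carry any difference between mouse #15 and the endpoint mice, and these cannot be told apart. Clone 34BC-D is in no other group. Differences of the stably expanded group from the others therefore also carry any difference between clones, which cannot be told apart either.

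Primary, or azurophilic, granules are formed when a granulocyte precursor passes through the promyelocyte stage, and their contents are transcribed in that window and switched off before the secondary granules are made. *Mpo* encodes myeloperoxidase, the heme enzyme that makes hypochlorous acid. *Elane*, *Prtn3*, *Ctsg* and *Prss57* encode the neutrophil serine proteases elastase, proteinase 3, cathepsin G and the protease with arginine specificity, which are stored in active form after cathepsin C has trimmed them and are held on the proteoglycan serglycin. *Cst7* encodes cystatin F, an inhibitor of cathepsin C and other cysteine cathepsins, and *Ms4a3* a tetraspan membrane protein of granulocyte and monocyte progenitors. In acute myeloid leukemia, MPO marks the myeloid lineage of blasts.

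In these libraries the levels of the primary granule genes showed 2 patterns, 1 between groups and 1 within a group. All 7 genes were higher in each stably expanded library than in any pre-malignant library, and *Prss57* and *Ms4a3* passed both the adjusted p-value and the 2-fold limit. Among the de novo expanded libraries, in contrast, *Mpo* and *Elane* were low in libraries 1 and 2 and high in library 3, with the pre-malignant libraries between them. *Ctsg* and *Cst7* did not have this split.

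Depth was similar, with 10379739 to 15551196 reads on genes per library, and a count of 0 in a library allows up to 3 reads, for counting error only. De novo expanded library 3 stood apart from the other 2 libraries of its group in the genes below. Tests of the primary granule genes between groups that use it are given with and without it. Correlations across libraries are given with all libraries only, and their dependence on library 3 was not tested. The sort and vector genes were present in every library. *Kit* ranged from 142 to 287 CPM (counts of a gene per 1000000 reads on genes), *Itgam* (CD11b) from 27.8 to 85.7 CPM, *Ptprc* (CD45) from 310 to 385 CPM, *Hoxa9* from 315 to 687 CPM and *Meis1* from 535 to 1099 CPM. Reads on olfactory and vomeronasal receptor genes, which such cells do not use, took 0.00841% to 0.0187% of reads in pre-malignant and 0.00219% to 0.0123% in leukemic libraries, and the part of this difference in the results was not tested.

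Of the 7 genes, 3 lie on chromosome 10 of the GRCm38 genome. *Prtn3* (chr10:79874476-79883174) and *Elane* (chr10:79886247-79888215) are neighbors on the plus strand, 3.07 kb apart, and *Prss57* (chr10:79781474-79790961, minus strand) lies 83.5 kb before *Prtn3*. The others are *Mpo* (chr11:87793581-87804413, plus strand), *Ctsg* (chr14:56099881-56102574, minus strand), *Ms4a3* (chr19:11629496-11640851, minus strand) and *Cst7* (chr2:150570415-150578944, plus strand). *Mpo* overlaps *Gm11505*, *Prtn3* overlaps *Plppr3* and *Prss57* overlaps *Fstl3*, each on the opposite strand. These overlapping genes had 17332, 16281 and 235 reads over the 9 libraries. The kit keeps strand, but the strand setting of the counting is not given in the sources used here, and reads in the shared parts are uncertain.

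RefSeq promoter sequences of the same build matched 6 of the 7 genes, all but *Prss57*. The 250 bases before each start were searched on both strands for the core letters bound by the factors known to act on these genes. GAGGAA, the core of PU.1 sites, was found for *Mpo*, *Elane*, *Prtn3* and *Ctsg*, that is in 4 of 6, and in 23.3% of all 32851 promoters. AACGG, the core of MYB sites, was found for *Elane* and *Prtn3*, in 2 of 6, and in 14.5% of all. TGTGGT, the core of RUNX sites, was found for *Ctsg* and *Cst7* (14% of all), TATAAA for *Ctsg* (12.4% of all), and the C/EBP letters TTGCNNAA for 0 of 6 (9.56% of all). In *Elane* and *Prtn3* the PU.1 and MYB letters stand in the same order and strand within the 60 bases from 100 to 41 before the start, while the same stretch of *Ctsg* holds the RUNX letters on the other strand. These 3 stretches are shown because *Elane* and *Prtn3* followed each other closely across the libraries and *Ctsg* less so. *Mpo* followed *Elane* about as closely (correlation over all libraries 0.98, against 0.99 for *Elane* and *Prtn3*). Its 250 bases held no MYB letters, and its PU.1 letters began 247 and 224 bases before the start, outside the stretch shown for the others. Any link between these letters and the levels was not tested. The capitals mark the letters found, which describe the sequence and not binding. The stretch of *Prtn3* lies inside, and that of *Elane* partly inside, the gene span given above, since the RefSeq starts used are downstream of the first bases of those spans.
Elane, chr10:79886212-79886271, plus strand: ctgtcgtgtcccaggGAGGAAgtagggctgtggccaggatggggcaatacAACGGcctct
Prtn3, chr10:79879567-79879626, plus strand: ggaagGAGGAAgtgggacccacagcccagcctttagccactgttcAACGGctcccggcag
Ctsg, chr14:56102615-56102674, minus strand: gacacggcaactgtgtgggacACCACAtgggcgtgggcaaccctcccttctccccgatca

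Per exon length, the order of levels was set by *Mpo*. In the pre-malignant libraries *Mpo* had 1942 ± 134 (SD, n = 3) RPKM (CPM per kilobase of exon), followed by *Elane* with 832 ± 15.6, *Ctsg* with 766 ± 211 and *Prtn3* with 300.0 ± 31.7 RPKM. *Ms4a3* with 53.1 ± 12.5, *Cst7* with 40.4 ± 3.25 and *Prss57* with 13.0 ± 2.55 RPKM were lower. The ranges of *Elane* (816 to 847 RPKM) and *Ctsg* (523 to 903 RPKM) overlapped, as did those of *Ms4a3* (41.1 to 66.0 RPKM) and *Cst7* (37.2 to 43.7 RPKM), so these neighbors in the order did not differ beyond their spread. The stably expanded libraries had the same order, from *Mpo* with 2397 ± 200.4 RPKM to *Prss57* with 30.9 ± 6.46 RPKM, and *Ms4a3* (113 to 145 RPKM) there stood clear of *Cst7* (71.9 to 76.5 RPKM). In the de novo expanded group *Ctsg* (984 ± 152 RPKM) had a higher mean than *Elane* (868 ± 1140 RPKM), and the SD of *Elane* was larger than its mean.

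In terms of reads, the 7 genes together took 0.814% to 0.956% of all reads in the pre-malignant libraries. They took 0.307%, 0.431% and 2.06% in de novo expanded libraries 1, 2 and 3, and 1.11% to 1.33% in the stably expanded libraries. *Mpo* alone held 73.7% to 75.5% of these reads in the pre-malignant, 53.3%, 61.7% and 76.7% in the de novo expanded and 67.0% to 70.2% in the stably expanded libraries. Fewer cells that express these genes and less of their RNA per cell cannot be told apart in bulk libraries.

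**Figure D1:**
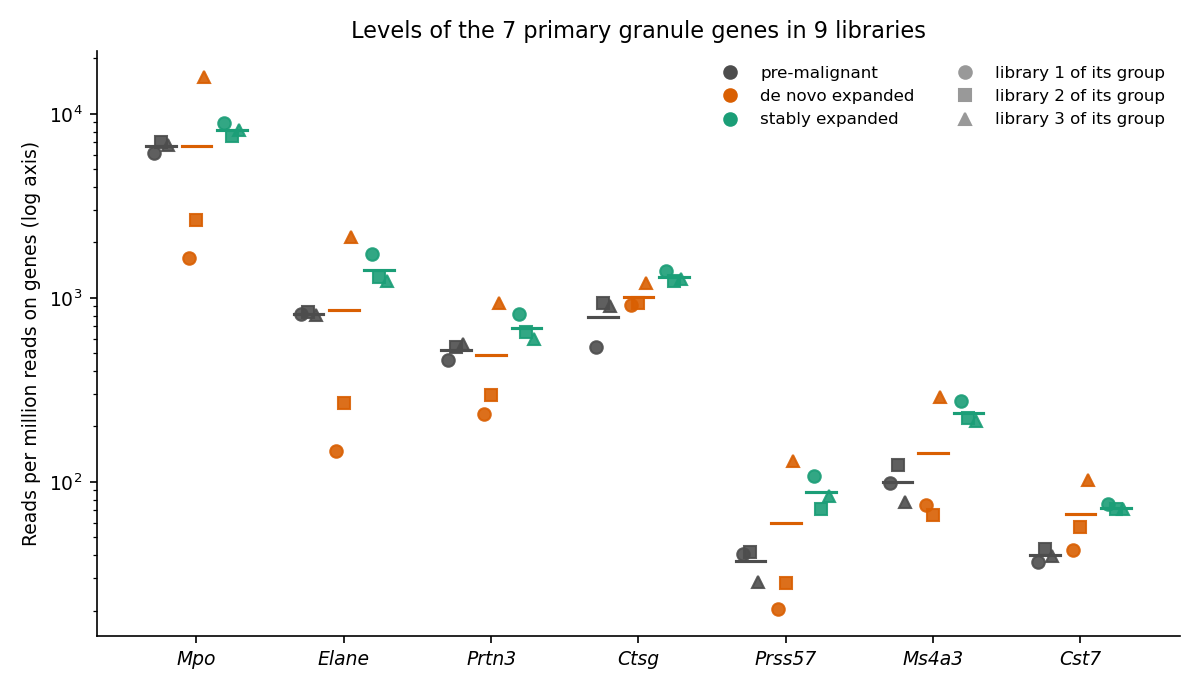
Levels of the 7 primary granule genes in CPM (log axis) in each of the 9 libraries. Symbols give the library number within a group and horizontal lines the mean of 3 libraries. De novo expanded library 3 had the highest value of all 9 libraries for 6 of the genes, while *Ctsg* was highest in stably expanded library 1, and de novo expanded libraries 1 and 2 had the lowest 2 values for *Mpo*, *Elane*, *Prtn3*, *Prss57* and *Ms4a3*.

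To ask what accompanied the outgrowth of minor clones, de novo expanded were compared with pre-malignant libraries. *Mpo* was measured at 6143, 7038 and 6772 CPM in the pre-malignant libraries and at 1637, 2658 and 15796 CPM in the de novo expanded libraries. The first 2 de novo expanded libraries thus lay below, and the third above, all 3 pre-malignant libraries, and the same was seen for the proteases encoded on chromosome 10. *Elane* had 821, 833 and 803 CPM in the pre-malignant and 148, 267 and 2148 CPM in the de novo expanded libraries, a 14.5-fold range in the latter. *Prtn3* had 457, 542 and 559 CPM against 232, 296 and 934 CPM. The range within the de novo expanded group was 9.65-fold for *Mpo* and 4.02-fold for *Prtn3*.

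*Prss57* and *Ms4a3*, at lower levels, split the same way, with smaller distances below the pre-malignant libraries but not above them. *Prss57* had 40.7, 41.6 and 28.6 CPM in the pre-malignant and 20.4, 28.2 and 130 CPM in the de novo expanded libraries, and *Ms4a3* had 98.2, 124 and 77.4 CPM against 75.0, 65.9 and 289 CPM. For both genes, de novo expanded libraries 1 and 2 lay below the lowest pre-malignant library by less than for *Elane*, while library 3 was 3.51-fold and 2.89-fold above the pre-malignant mean, against 2.62-fold for *Elane*. *Ctsg*, in contrast, had 540, 933 and 901 CPM in the pre-malignant and 916, 936 and 1198 CPM in the de novo expanded libraries, and the first 2 of these lay at, or just above, the upper end of the pre-malignant range. *Cst7*, the cathepsin inhibitor, had 36.7, 43.1 and 39.7 CPM against 42.8, 57.0 and 102 CPM.

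Across the table, 5 of the 7 genes had de novo expanded libraries 1 and 2 below and library 3 above all pre-malignant libraries, on the scale of normalized counts. This pattern, chosen after the values were seen, held for 6.59% of the 14195 genes tested. For *Prss57* and *Ms4a3* it rested on small margins in normalized counts. *Prss57* had 395 in library 2 against a lowest pre-malignant value of 400, and *Ms4a3* had 1054 in library 1 against 1081. Taken singly, library 1 was below the pre-malignant range in 5 of 7 genes, against 34% of all tested genes, library 2 below it in 5 of 7, against 28.7%, and library 3 above it in 7 of 7, against 36.3%.

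**Figure D2:**
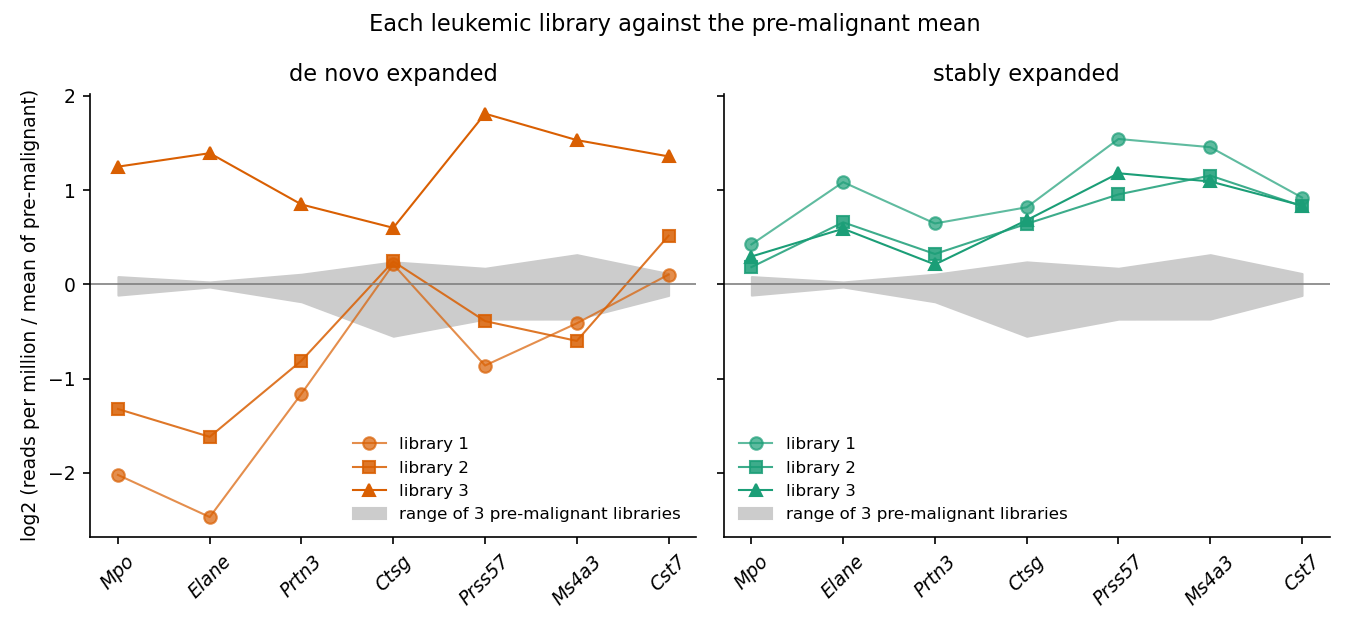
Log2 ratio of each de novo expanded (left) and stably expanded (right) library to the mean of the 3 pre-malignant libraries, in CPM, for the 7 genes. The gray band is the range of the pre-malignant libraries. De novo expanded libraries 1 and 2 were lowest for *Elane* (-2.47 and -1.62) and within or close above the band for *Ctsg* (0.21 and 0.24), whereas all stably expanded values were above it.

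Differential expression was tested with limma on log2(normalized count + 1), and calls needed both a p-value below 0.05 after Benjamini-Hochberg adjustment and a 2-fold or larger difference. Fold changes refer to this scale of normalized counts, and p-values weigh a difference against the spread between these libraries. That spread holds no difference between mice in the pre-malignant group, which came from a single mouse. In the stably expanded group, which is a single clone, it holds no difference between clones. None of the 7 genes was called, and 0 of 7 had an unadjusted p-value under 0.05, in a comparison in which limma called 0 of 14195 genes (0%) and unadjusted p-values were below 0.05 for 1597 (11.3%). DESeq2, run without the filter on low values, called 42 of 41164 genes (0.102%) and edgeR 0 of 14195, with none of the 7 genes among them. The log2 fold change was -0.68 ± 0.74 (SE) for *Mpo* with a limma adjusted p-value of 0.762, -0.88 ± 0.87 for *Elane* (0.730) and -0.35 ± 0.47 for *Prtn3* (0.815). It was 0.22 ± 0.63 for *Prss57*, 0.21 ± 0.53 for *Ms4a3*, 0.41 ± 0.22 for *Ctsg* and 0.68 ± 0.30 for *Cst7*, the last of which was the one gene of the 7 whose groups did not overlap in normalized counts (19.1% of tested genes did not). The margin was small, with a lowest de novo expanded value of 601 against a highest pre-malignant value of 597 normalized counts, and in CPM the groups of *Cst7* overlapped. The median over the 7 genes was 0.21, against 0.0079 over all tested genes.

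These values rested on de novo expanded library 3. Each library was left out in turn, and library 3 is described apart because its values of these genes were seen to differ. The p-values without library 3 depend on that choice and are not separate support for a difference. Without library 3, limma called 214 of 14224 genes (1.5%), 110 of them lower (0.773%), and among these were *Mpo* and *Elane*. *Mpo* was then 3.17-fold lower in the de novo expanded libraries (log2 -1.66 ± 0.17, limma adjusted p-value 0.00103) and *Elane* 4.11-fold lower (log2 -2.04 ± 0.19, limma adjusted p-value 0.000483). *Prtn3* had a log2 fold change of -0.97 ± 0.12 with a limma adjusted p-value of 0.00308, just under the 2-fold limit. *Prss57* (-0.60 ± 0.20), *Ms4a3* (-0.47 ± 0.17), *Ctsg* (0.27 ± 0.19) and *Cst7* (0.32 ± 0.15) did not pass the adjusted p-value. The median over the 7 genes turned to -0.60, whereas without de novo expanded library 1 or 2 it was 0.48 and 0.47. The sign of *Mpo* and *Elane* also depended on the fit of all 6 libraries: edgeR gave log2 fold changes of 0.011 and 0.061, and DESeq2 0.041 and 0.093.

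The balance between the proteases differed accordingly. The ratio of *Elane* to *Ctsg* reads, taken within a library and thus without a scaling between libraries, was 1.52, 0.893 and 0.891 in the pre-malignant libraries. The de novo expanded libraries gave 0.161, 0.285 and 1.79, and the stably expanded libraries 1.25, 1.05 and 0.972. The ratio of *Mpo* to *Ctsg* reads was 7.52 to 11.4 in pre-malignant and 6.11 to 6.43 in stably expanded libraries, but 1.79, 2.84 and 13.2 in the de novo expanded libraries. The pre-malignant and stably expanded ranges of the *Elane* ratio overlapped, while those of the *Mpo* ratio did not. The ratio of *Mpo* to *Elane* reads ranged from 5.13 to 11.1 over all 9 libraries.

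Next, stably expanded were compared with pre-malignant libraries. Clone 34BC-D had 8915, 7545 and 8158 CPM of *Mpo*, 1736, 1292 and 1232 CPM of *Elane* and 813, 649 and 601 CPM of *Prtn3*. Each of these values lay above the 3 pre-malignant values of the same gene, although for *Prtn3* the lowest was close to the highest pre-malignant value of 559 CPM. *Ctsg* had 1394, 1234 and 1268 CPM and *Cst7* 75.4, 70.8 and 71.1 CPM in the stably expanded libraries. *Prss57* had 108, 71.7 and 83.7 CPM and *Ms4a3* 274, 222 and 213 CPM.

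Of the 13968 genes tested, 384 (2.75%) were called, and 168 (1.2%) were called higher in the stably expanded libraries. *Prss57* and *Ms4a3* were among the latter, 2 of the 7 genes. *Prss57* rose 2.37-fold (log2 1.25 ± 0.18, limma adjusted p-value 0.00544) and *Ms4a3* rose 2.40-fold (log2 1.26 ± 0.16, limma adjusted p-value 0.00346). Both were called by edgeR (377 of 13968 genes called, 2.7%) and by DESeq2. DESeq2 was run without the filter on low values and called 393 of 40665 genes (0.966%). They were also called in each of the 6 fits that left out 1 library, in which 1.73%, 1.49% and 1.57% of all genes were called without pre-malignant libraries 1, 2 and 3, and 1.48%, 3.23% and 2.95% without stably expanded libraries 1, 2 and 3. *Cst7* was 1.82-fold, *Elane* 1.72-fold and *Ctsg* 1.69-fold higher with limma adjusted p-values of 0.00346, 0.00783 and 0.0268, below the 2-fold limit. Without that limit, 7.95% of all tested genes passed. *Prtn3* and *Mpo*, at 1.32-fold and 1.24-fold, did not pass (limma adjusted p-values 0.0706 and 0.152).

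All 7 genes were higher in stably expanded libraries with no overlap between the groups, which held in this direction for 16.1% of tested genes, and all 7 had an unadjusted p-value under 0.05 (13.2% of tested genes were higher with such a p-value). The median log2 fold change was 0.78 over the 7 genes and 0.0042 over all tested genes. The p-value of *Ctsg* rested on single libraries, with limma adjusted p-values of 0.0794 without stably expanded library 1 and 0.0506 without stably expanded library 3. In 1 fit of all 9 libraries, whose estimate of the spread includes the de novo expanded group, 6 genes (0.043%) were called and *Prss57* and *Ms4a3* were not (limma adjusted p-values 0.265 and 0.192).

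**Figure D3:**
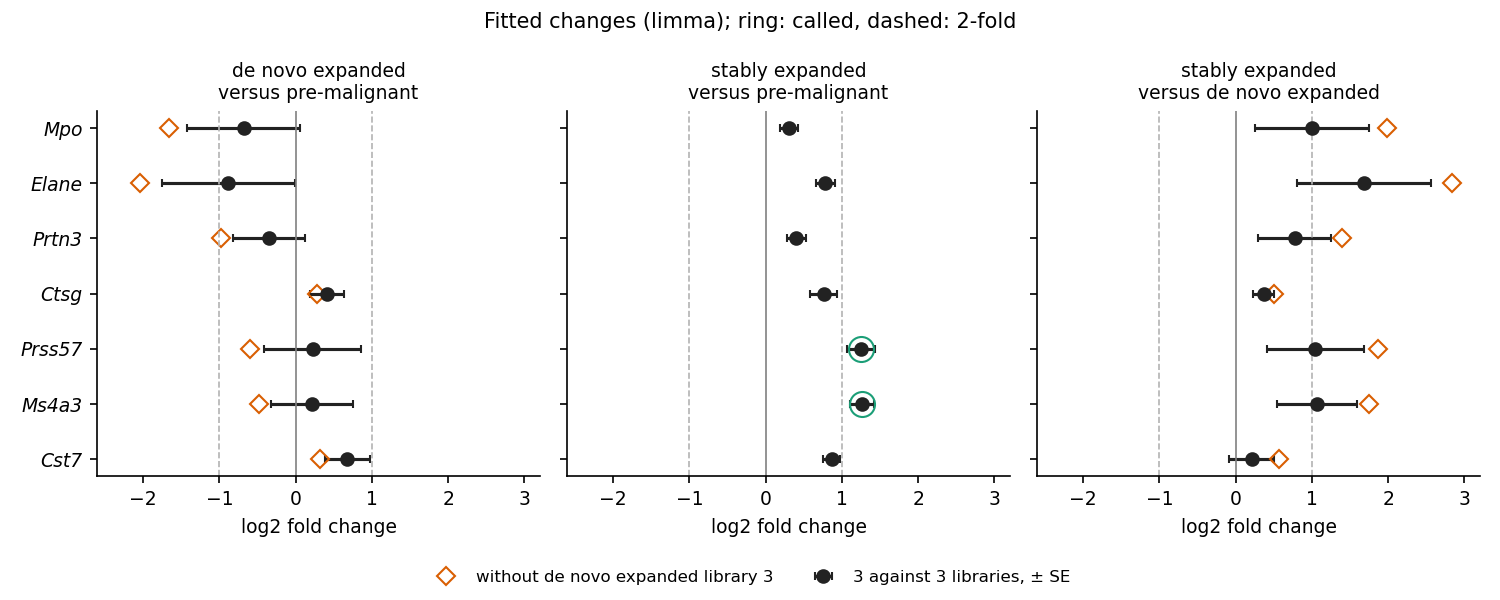
Log2 fold changes of the 7 genes in the 3 comparisons (black, limma, bars ± SE) and the same without de novo expanded library 3 (orange diamonds). Dashed lines mark a 2-fold change and rings the genes called with all libraries. The diamonds of *Mpo* and *Elane* lie at -1.66 and -2.04 in the first panel and at 1.99 and 2.84 in the third, and only *Prss57* and *Ms4a3* are ringed, in the middle panel.

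The leukemic groups were then compared with each other. This comparison shares its libraries with the other 2, and its values are therefore not a separate line of evidence. All 7 genes were higher in the stably than in the de novo expanded libraries by mean log2 value, with a median of 1.01, but none was called, where limma called 1 of 13758 genes (0.00727%). *Elane* had a log2 fold change of 1.68 ± 0.88, *Ms4a3* of 1.07 ± 0.52, *Prss57* of 1.04 ± 0.63, *Mpo* of 1.01 ± 0.75, *Prtn3* of 0.77 ± 0.48 and *Cst7* of 0.21 ± 0.29. The values depended on the tool, since edgeR and DESeq2 gave 0.74 and 0.73 for *Elane*, 0.30 and 0.29 for *Mpo*, and both a median of 0.50 over the 7 genes. *Ctsg*, at 0.37 ± 0.14, was the 1 gene of the 7 with an unadjusted p-value under 0.05 (0.0298, limma adjusted p-value 0.891; 4.83% of tested genes) and was the one gene without overlap, as were 9.61% of tested genes.

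Without de novo expanded library 3, limma called 508 of 13756 genes (3.69%), 355 (2.58%) of them higher in stably expanded libraries, and the latter held 5 of the 7 genes. As above, this library was picked out after the values were seen, and the p-values depend on that choice. *Elane* was 7.14-fold and *Mpo* 3.96-fold higher (limma adjusted p-values 0.000612 and 0.00126). *Prss57*, *Ms4a3* and *Prtn3* were 3.64-fold, 3.37-fold and 2.62-fold higher, with limma adjusted p-values of 0.00195, 0.000512 and 0.00195. *Ctsg* (1.41-fold, 0.0261) stayed under the 2-fold limit and *Cst7* (1.48-fold, 0.0535) above the p-value limit. The median over the 7 genes was 1.75 without library 3, 0.38 without library 1 and 0.68 without library 2.

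The 7 genes did not follow each other equally across the 9 libraries. Pearson correlations of log2(CPM + 1), given as a description of libraries that share mice and depth, ranged from 0.36 between *Mpo* and *Ctsg* to 0.99 between *Elane* and *Prtn3*. Against the mean of the other 6 genes, *Prss57* (0.97) and *Ms4a3* (0.95) followed most closely and *Ctsg* (0.62) least. With the group means taken out, *Prtn3* (0.99), *Mpo* and *Cst7* (both 0.98) followed most closely, *Ms4a3* (0.92) less and *Ctsg* (0.49) again least. The 10 other genes most like the mean profile of the 7 were *Mfsd13a* (0.99), *Arid3a*, *Tmx4*, *Erich5*, *Hnrnpll*, *Trim45*, *Srgn*, *Tnfaip8*, *Gga2* and *Oscp1* (each 0.98). *Srgn* encodes serglycin, the proteoglycan that holds the granule proteases, and *Arid3a* lies 38.8 kb beyond *Elane* on chromosome 10. *Srgn* had 243 to 260 CPM in the pre-malignant, 184, 235 and 650 CPM in the de novo expanded and 418 to 537 CPM in the stably expanded libraries. *Arid3a* moved less, from 214 to 306 CPM over all libraries.

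Neighbors of the chromosome 10 genes were examined beside them. Of 29 other genes within 100 kb, 18 were tested and 0 were called in any of the 3 comparisons (limma), and 1 had an unadjusted p-value under 0.05 between de novo expanded and pre-malignant libraries, with and without de novo expanded library 3. Between stably expanded and pre-malignant libraries 6 of the 18 had one, 3 higher and 3 lower, against 25.4% of all tested genes. *Palm*, next to *Prss57*, had a log2 fold change of 0.72 between stably expanded and pre-malignant libraries (limma adjusted p-value 0.00455, under the 2-fold limit), and *Plppr3*, which overlaps *Prtn3*, of -0.51 (0.0221). *Cfd*, which encodes adipsin and lies close behind *Elane*, had 27 reads in all 9 libraries.

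**Figure D4:**
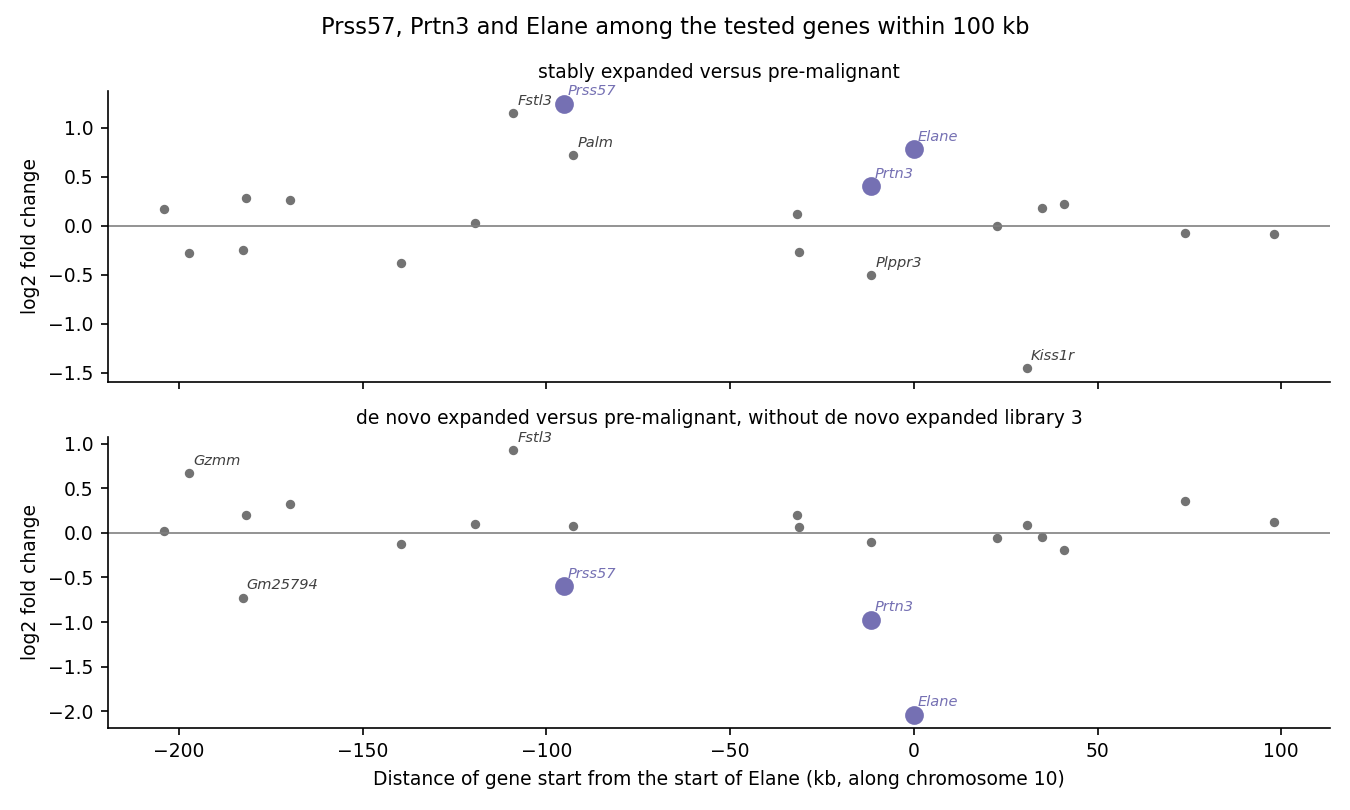
Log2 fold change of each tested gene within 100 kb of *Prss57*, *Prtn3* or *Elane*, plotted by the distance of its start from the start of *Elane* in kb along chromosome 10. Above, stably expanded against pre-malignant libraries, and below, de novo expanded without library 3 against pre-malignant libraries, with names for the 3 granule genes and for changes beyond 0.4. In the lower panel *Elane* lies at -2.04, *Prtn3* at -0.97 and *Prss57* at -0.60, while *Arid3a* is at -0.19 and *Palm* at 0.075.

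Genes that act on the granule proteins were examined as further lists. Between stably expanded and pre-malignant libraries, the 12 genes for processing and packaging had a median log2 fold change of 0.16, with 7 higher in the former and 1 called. The called gene was *Cd63*, a tetraspanin of the granule membrane that carries elastase to the granule, at 1.69 ± 0.18 (limma adjusted p-value 0.00247). *Cd63* had 39.9 to 48.3 CPM in the pre-malignant, 13.9, 18.6 and 179 CPM in the de novo expanded and 116 to 193 CPM in the stably expanded libraries, the same split as *Elane*. *Srgn* (0.87, limma adjusted p-value 0.00346) and *Serpinb1a* (0.90, 0.00877), the cytosolic inhibitor of these proteases, passed the adjusted p-value below the 2-fold limit.

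*Ctsc*, which encodes the activating cathepsin C, had another profile. It was measured at 32.2, 34.1 and 57.4 CPM in the pre-malignant, 43.6, 43.7 and 11.2 CPM in the de novo expanded and 20.2, 32.3 and 16.1 CPM in the stably expanded libraries. De novo expanded library 3, with the highest *Mpo* and *Elane*, thus had the lowest *Ctsc* of all libraries. Its correlation with the mean profile of the 7 genes was -0.83 over the 9 libraries, and the change between stably expanded and pre-malignant libraries was -0.85 ± 0.26 (limma adjusted p-value 0.0713).

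Among 11 tested genes for other, largely lysosomal, contents of primary granules, 10 were higher in stably expanded than in pre-malignant libraries. *Man2b1* (log2 fold change 0.38, limma adjusted p-value 0.0452) and *Gusb* (0.28, 0.0601), encoding acid mannosidase and beta-glucuronidase, did not reach the 2-fold limit, and the median of the list was 0.28. *Lyz2*, encoding lysozyme, had a log2 fold change of -0.13 ± 0.30. Of the 8 enzymes of heme synthesis, which supplies the prosthetic group of myeloperoxidase, 6 were higher and 0 were called, with a median of 0.19. *Fech*, the enzyme that inserts the iron, was at 0.54 ± 0.12 with a limma adjusted p-value of 0.0206, under the 2-fold limit, *Uros* at -0.64 (0.123) and *Alas1*, the first enzyme of the pathway outside erythroid cells, at 0.28 (0.166).

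The 8 transcription factors that act on these genes had a median of 0.19, with 6 higher in the stably expanded libraries and 1 called. *Cebpe*, which drives the passage from promyelocyte to later stages, rose (1.66 ± 0.21, limma adjusted p-value 0.00346). It had 28.2 to 36.3 CPM in the pre-malignant, 8.51, 16.1 and 89.5 CPM in the de novo expanded and 72.4 to 139 CPM in the stably expanded libraries, and without de novo expanded library 3 it was called lower in the de novo expanded group (-1.45, limma adjusted p-value 0.0126). *Gfi1*, a repressor needed for granulocytic fate, was at 0.85 ± 0.15 (0.0102) and *Runx1* at -0.70 ± 0.10 (0.00583), both passing the adjusted p-value but not the 2-fold limit. *Cebpa*, the factor that opens the granulocytic program, had a log2 fold change of -0.06 ± 0.12, and *Spi1*, encoding PU.1, of 0.20 ± 0.11.

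Markers of some other stages and cell types also differed between the groups, in either direction, and their part in the results was not tested. The 10 tested secondary and tertiary granule genes had a median of 1.99 against pre-malignant libraries, with 9 higher in stably expanded libraries and 6 called, namely *Ltf* (4.58), *Camp* (3.98), *Chil3* (3.61), *Ngp* (3.14), *Lcn2* (2.54) and *Ltb4r1* (1.397). Their summed level was 376 to 527 CPM in the pre-malignant, 369, 469 and 825 CPM in the de novo expanded and 4504, 2084 and 809 CPM in the stably expanded libraries. In the same stably expanded libraries the primary granule genes took 1.33%, 1.11% and 1.16% of reads. *Cxcr2* (1.64) and *Stfa2l1* (3.43) were called among 5 tested late neutrophil genes, all of them with a higher mean, of which *S100a9* had 2.44 (limma adjusted p-value 0.0647), while 3 of 11 promyelocyte and progenitor genes were called, *Fcnb* (3.00), *Trem3* (2.24) and *Nkg7* (1.38). Without stably expanded library 1, without library 2 or without pre-malignant library 2, 0 late neutrophil genes were called, 1 without pre-malignant library 1 or 3 and 4 without stably expanded library 3. The secondary and tertiary granule list had 4 to 7 calls when 1 library was left out, and of these 6 fits *Nkg7* was called in 1, that without stably expanded library 2.

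Monocyte genes ran in the opposite direction. All 10 were lower in stably expanded than in pre-malignant libraries (median -1.27) and 5 were called, *Klf4* (-1.93), *Csf1r* (-1.71), *Cx3cr1* (-1.45), *Irf8* (-1.35), the factor that directs progenitors to monocytes, and *Ms4a6c* (-1.18), where 1.55% of all genes were called lower. When 1 library was left out, 2 (without pre-malignant library 2 or 3) to 6 monocyte genes were called lower. Their summed level was 1293, 1811 and 2126 CPM in the pre-malignant, 2044, 2181 and 607 CPM in the de novo expanded and 688, 1393 and 1023 CPM in the stably expanded libraries, with the lowest value in de novo expanded library 3. Of 8 B cell genes, 5 were called lower in stably expanded libraries, *Ighm* (-1.48), *Ighd* (-1.68), *Ms4a1* (-2.29), *Pax5* (-3.04) and *Igkc* (-3.53), against the same 1.55% of all genes. *Ms4a1* and *Pax5* had only 0.206 to 0.674 and 0.193 to 0.617 CPM in the stably expanded libraries, where 3 reads equal 0.196 to 0.289 CPM. The summed level of the 8 genes was 227 to 276 CPM in the pre-malignant and 86.9 to 108 CPM in the stably expanded libraries. *Cd79b* had the other direction (0.99 ± 0.32, limma adjusted p-value 0.0796), with a mean of 7.21 CPM in the pre-malignant and 14.1 CPM in the stably expanded libraries. When 1 library was left out, 2 (without pre-malignant library 1 or 2) to 4 B cell genes were called lower, and 3 without pre-malignant library 3. Of the stem and progenitor genes, 8 were tested and 0 were called, with *Cd34* at -0.76 ± 0.17 (limma adjusted p-value 0.0261), *Kit* at -0.30 (0.0795) and *Meis1* at 0.35 (0.225).

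Markers of T and NK cells and of platelets were near 0. The 8 T and NK cell genes summed to 0.457 to 2.53 CPM and the 5 platelet genes to 1.17 to 3.04 CPM, with *Ppbp* and *Gp1bb* at 0 in all 9 libraries. Mast cell and basophil genes summed to 6.93 to 18.4 CPM. Erythroid genes summed to 18.6 to 35.0 CPM in the pre-malignant, 2.29 to 14.8 CPM in the de novo expanded and 2.31 to 24.05 CPM in the stably expanded libraries. Against pre-malignant libraries, 5 of 6 tested erythroid genes had a lower mean in either leukemic group (medians -2.26 and -1.96), 3 with an unadjusted p-value under 0.05 in each, and 0 were called by limma. The 8 eosinophil genes summed to 6.50 to 15.9 CPM in the pre-malignant and 22.6 to 44.4 CPM in the stably expanded libraries. The de novo expanded libraries had 1.84, 2.89 and 23.9 CPM. Both tested ones, *Prg2* (4.55) and *Prg3* (1.55), were called higher in the stably expanded group. *Prg2* was low in the pre-malignant libraries (0.986, 0.274 and 0 CPM). The untested genes of the list were near or at 0. *Epx*, *Ccr3* and *Il5ra* had lower means in the stably expanded (0.0228, 0 and 0 CPM) than in the pre-malignant libraries (0.328, 0.382 and 0.0478 CPM). *Ear6* had a mean of 0.0321 CPM in the stably expanded and 0 in the pre-malignant libraries. *Ear1* and *Ear2* were at 0 in all 9 libraries. *Prg3* was not called without pre-malignant library 2 or 3 or stably expanded library 1 or 3. Macrophage genes summed to 54.6 to 243 CPM, of which *Vcam1* alone had 100.3, 12.4 and 13.6 CPM in the pre-malignant and 1.17, 6.75 and 167 CPM in the de novo expanded libraries and 77.4 to 141 CPM in the stably expanded libraries (log2 2.03 ± 0.63 against pre-malignant libraries, limma adjusted p-value 0.0729).

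**Figure D5:**
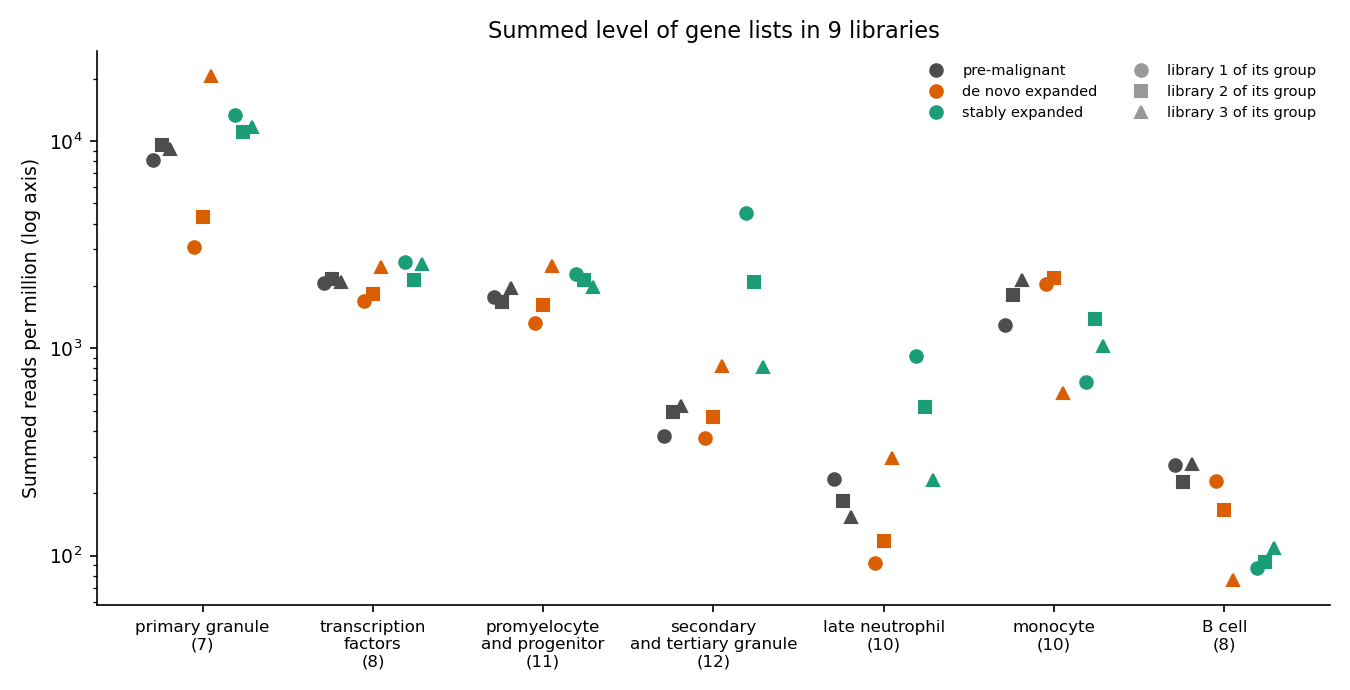
Summed level of 7 gene lists in CPM (log axis) for each library, with the number of genes of a list in parentheses. Symbols give the library number within a group. De novo expanded library 3 is the highest of its group for the primary granule, transcription factor and neutrophil lists and the lowest for the monocyte (607 CPM) and B cell (76.2 CPM) lists.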

How the data were processed

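RNA-Seq values of 9 libraries in 3 groups were analysed. Per the labels and the methods of the study, reads were trimmed with Trim Galore 0.6.4, aligned with STAR 2.6.1d to GRCm38.p6 with GENCODE annotation, counted with featureCounts 1.6.4 and normalized with DESeq2. In the 3 deposited pairwise tables, gene counts had been scaled by DESeq2 size factors set over the 6 libraries of a table, which gives a normalized count signal. Columns of the authors' own comparisons (mean, fold change, standard error, Wald statistic and p-values) were not used. Whole reads were recovered from the normalized counts, with at least 99.99% of nonzero values within 0.05 of a whole number, and the 2 tables that hold a library gave the same reads.

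CPM and RPKM were computed from recovered reads and the deposited exon length. Each table was tested with limma 3.58.1 (R 4.3.3, empirical Bayes with trend, two-sided) on log2(normalized count + 1), with Benjamini-Hochberg adjustment over the genes whose normalized counts averaged 10 or more in its 6 libraries. No exact permutation test is given, since 3 against 3 libraries cannot go below 0.1. As alternatives, pseudocounts of 0.1 and 5, no filter or one at 50, quantile normalization, 1 fit of 9 libraries, no fold limit, edgeR 4.0.16 (quasi-likelihood, TMM) and DESeq2 1.42.0 on recovered reads, and leaving out each library were run. Tests were checked on simulated counts in which 200 genes per comparison had a 4-fold change. Between de novo expanded and pre-malignant libraries 172 of these were called, beside 14 false calls. The numbers were 189 and 6 between stably expanded and pre-malignant libraries, and 169 and 8 between the leukemic groups. Simulated libraries of a group shared their expected levels up to depth, so the check does not cover a library that stands apart as de novo expanded library 3 did. Tables and figures used Python 3.11.15, pandas 2.3.3, numpy 2.4.6 and matplotlib 3.10.9.

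The members, the 18 gene lists and the rules were chosen with earlier results of these data known. Genes named are the 7 members, called genes of the lists, the 3 genes with the smallest p-values of the granule, heme, factor and progenitor lists, the 10 genes most like the members' mean profile (mean of at least 1 CPM), sort and vector genes and neighbors. Some items that these rules name are not reported here. *Lyz2*, *Cebpa*, *Spi1*, *Ctsc*, *Vcam1* and *Cfd* were named after their values were seen. Nothing in the labels says whether libraries of a group are independent transplants beyond their mouse number.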

Additional observations from a re-analysis of the deposited data

How the results depend on the processing

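No paired analysis was possible because the labels tie the columns to a group and not to a mouse or clone, so that no replicate block could be fitted. With pseudocounts of 0.1 or 5, a filter at 50 and quantile normalization, the calls of the 7 genes were the same in all 3 comparisons. The 3 comparisons differed more in their counts of calls. Between stably expanded and pre-malignant libraries, 384 genes were called, 6 in 1 fit of all 9 libraries, 1110 without the fold limit and 206 to 452 when 1 library was left out, with *Prss57* and *Ms4a3* lost in the fit of 9 libraries only. The cause was not tested. Between de novo expanded and pre-malignant libraries, 0 genes were called, 5 without a filter, 5 in 1 fit of 9 libraries, 42 by DESeq2 and 0 to 214 when 1 library was left out. Between the leukemic groups, 1 gene was called, 2 without a filter, 2 in 1 fit of 9 libraries, 29 by DESeq2 and 0 to 508 when 1 library was left out. The signs of *Mpo* and *Elane* between de novo expanded and pre-malignant libraries turned to 0.011 and 0.061 with edgeR and to 0.041 and 0.093 with DESeq2, and the cause was not tested. When 1 library was left out of this comparison, *Prtn3* ranged from -0.97 to 0.044 (positive without de novo expanded library 1), *Prss57* from -0.60 to 0.75 and *Ms4a3* from -0.47 to 0.61 (both negative without de novo expanded library 3). Between the leukemic groups *Cst7* ranged from -0.072 (without de novo expanded library 1) to 0.57. The median over all genes, which the DESeq2 fit takes over genes of low count as well, was -0.19, -0.38 and -0.056 in the 3 comparisons with DESeq2. Precision is limited by 3 libraries per group, and each of the 7 genes had at least 244 reads in every library.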
